A study of Mus musculus with 8 samples.

Results

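The platelet-derived growth factor (PDGF) family comprises 7 genes in the mouse: the ligand genes Pdgfa, Pdgfb, Pdgfc and Pdgfd, the receptor genes Pdgfra and Pdgfrb, and the receptor-like gene Pdgfrl. The 7 were taken by their symbols from count tables of 38355 Ensembl genes, and all 7 passed the filter on low counts that left 16539 genes to be tested. The tumours came from mice given azoxymethane, a colon carcinogen, and every mouse of both groups was treated. In the first group, Trp53ΔIEC (4 tumours), the tumour suppressor gene Trp53 was lost from intestinal epithelial cells, which the field abbreviates IEC. In the second, Trp53ΔIECAktE17K (4 tumours), mice carried the same loss together with AktE17K, an activating form of the kinase AKT. Each library is 1 whole tumour of 1 mouse, so epithelium, stroma, vessels and blood cells were measured together. The promoter driving the recombinase, the construct of the Akt allele and the age of the mice were not given in the sources used here. Both groups carry the Trp53 loss, so Trp53 RNA (20.8 to 25.8 CPM in Trp53ΔIEC, 24.8 to 37.1 CPM in Trp53ΔIECAktE17K tumours) cannot check it between them, and Akt1 RNA, at 383 to 430.2 and 338 to 409.6 CPM, does not show the allele. CPM is the read count of a gene relative to the scaled library size (TMM).

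PDGFs are secreted dimers that act mainly from one cell type on another. PDGF-A binds the receptor PDGFRα, PDGF-B binds both receptors, PDGF-C acts chiefly through PDGFRα and PDGF-D chiefly through PDGFRβ. The receptors are tyrosine kinases that recruit phosphoinositide 3-kinase, the enzyme upstream of AKT, among other signalling proteins. In the gut, epithelium is a known source of PDGF-A, PDGFRα marks fibroblasts beneath the epithelium, PDGF-B from endothelium recruits pericytes, and PDGFRβ marks pericytes, smooth muscle and fibroblasts.

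Assigned reads per library ranged from 18572180 to 26268547, and the 7 genes received between 1897 (Pdgfd) and 21104 (Pdgfra) reads over the 8 tumours. The 10 epithelial markers summed to 9778 to 12347 CPM in Trp53ΔIEC and to 6097 to 11952 CPM in Trp53ΔIECAktE17K tumours. The gut transcription factor gene Cdx2 was detected in every tumour, at 7.77 to 76.1 CPM. Some libraries stood apart. The 6 squamous epithelium markers summed to 13904 CPM in Trp53ΔIECAktE17K replicate 1, 1742 CPM in replicate 4, 579 CPM in replicate 2 and 75.5 CPM in replicate 3, against 76.6 to 228 CPM in the Trp53ΔIEC tumours. Heart muscle markers, which a colon tumour should lack, were called higher in 6 of 8 tested members. Of all tested genes 3.44% were called higher and 0.756% lower. The heart marker sums were 14.0 to 36.9 CPM in Trp53ΔIEC and 136 to 166 CPM in Trp53ΔIECAktE17K tumours. Hepatocyte markers were called lower in 2 of 9. Their sums were 64.6 to 98.3 CPM in Trp53ΔIEC and 25.1, 19.3, 143 and 15.1 CPM in Trp53ΔIECAktE17K replicates 1 to 4. In replicate 3 the single gene Fgb was at 126 CPM. Myh6, the heart myosin gene, was at 0 to 0.223 CPM in the first group and at 47.6 to 57.0 CPM in the second. No tested heart or hepatocyte marker was at 0 in all 4 tumours of a group, and the part of heart, liver or squamous RNA in the results on PDGF genes was not tested.

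No PDGF gene passed the test for a difference between the genotypes. In edgeR's quasi-likelihood test 0 of 7 had an adjusted p under 0.05, while 4.20% of all tested genes did, 3.44% higher and 0.756% lower in Trp53ΔIECAktE17K tumours. At an unadjusted p under 0.05 there were 2 of 7, Pdgfa and Pdgfra, against 20.8% of all tested genes. DESeq2 and limma-voom also called 0 of 7, beside 9.49% of the 26114 genes with a DESeq2 p-value and 3.31% of those in limma-voom. The groups overlapped in all 7 genes, whereas 14.2% of tested genes had no overlap. With 4 tumours a group the intervals were wide: the 95% interval of the fold change ran from 1.11 to 3.89 for Pdgfa and from 0.319 to 0.983 for Pdgfra, before any adjustment for the number of genes tested. A missed threshold therefore does not show equal levels.

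**Figure D1:**
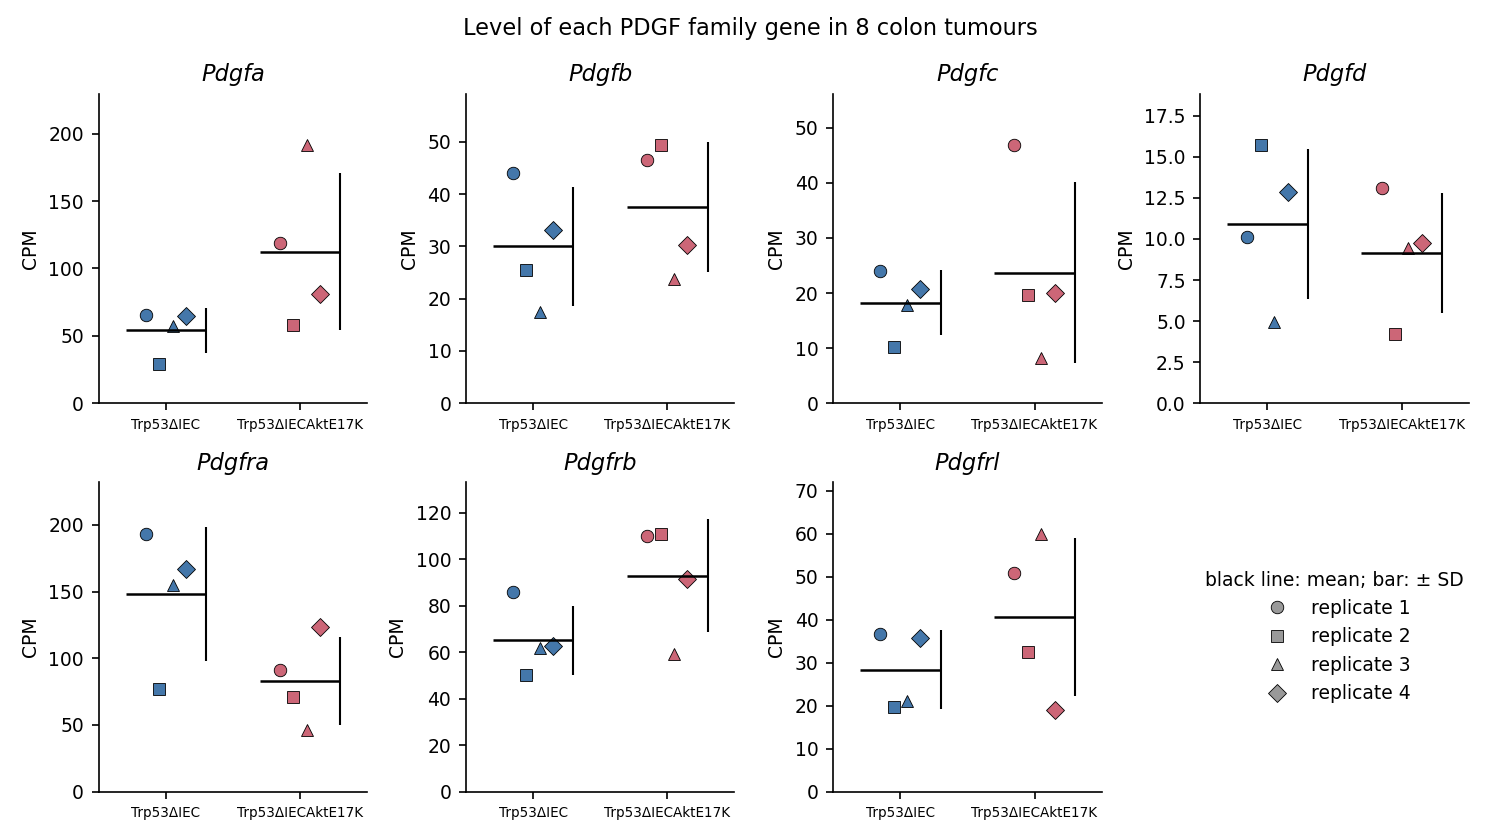
Level of each PDGF family gene in CPM (vertical axes, each from 0) in the 4 Trp53ΔIEC (blue) and 4 Trp53ΔIECAktE17K (red) tumours, with marker shapes for replicates, a line for the mean and a bar for ± SD. The groups overlap in every panel, with Pdgfa highest in Trp53ΔIECAktE17K replicate 3 at 191 CPM and Pdgfra lowest there at 45.9 CPM.

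Pdgfa encodes the ligand that gut epithelium sends to PDGFRα-bearing stroma, and of the 4 ligand genes it had the largest log2 fold change. Pdgfa (ENSMUSG00000025856, chromosome 5, 138976014 to 138997370, minus strand, mm10) was at 65.3, 29.3, 57.3 and 64.4 CPM in Trp53ΔIEC replicates 1 to 4. In Trp53ΔIECAktE17K replicates 1 to 4 it was at 119, 58.3, 191 and 80.7 CPM. In Pdgfa 3 of the 4 Trp53ΔIECAktE17K tumours lay above every Trp53ΔIEC tumour, and replicate 2 lay within their range. The means were 54.1 ± 16.9 and 112 ± 58.4 CPM (SD, n = 4 each), with a log2 fold change of 1.06 ± 0.40 (SE, edgeR adjusted p = 0.175). With Trp53ΔIECAktE17K replicate 3 left out, it was 0.68 (edgeR adjusted p = 0.305). Pdgfa shares 813 exon bases with the antisense gene 6330403L08Rik, and because the library kit does not record the strand, reads from those bases cannot be assigned to one of them.

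Because this ligand gene and its receptor gene had the largest log2 fold changes of the family in opposite directions, the bases before their start sites are shown. RefSeq's table of start sites on GRCm38.p6, the assembly of mm10, held windows for 4 of the 7 members. The 250 bases before the start of Pdgfa were 72.4% G or C, above 93.6% of the 32851 windows in the table, and held 28 CG dinucleotides. The 250 bases before the start of Pdgfra were 54.4% G or C, against a median of 52.4% over all windows, and held 4. The GC box GGGCGG, read on both strands, occurred 2 times before Pdgfa and 0 times before Pdgfra, and 32.7% of all windows hold it. The TATA box TATAAA (12.4% of windows), the core TGGGAA bound by the Notch partner RBPJ (21.6%) and the core GTAAACA bound by FOXO factors (3.17%) occurred in neither. The sequences are printed 5′ to 3′ on the strand of the gene, with CG dinucleotides in capitals. Pdgfa has several annotated starts, and RefSeq's window belongs to one that lies inside the annotated gene. The stretch printed for Pdgfa, chr5:138995038-138995194 (minus strand), stops at the first exon of transcripts that start there, which leaves out both GC boxes. It lies in an intron of other annotated transcripts that start farther upstream. For Pdgfra the sequence lies before the annotated gene and covers chr5:75152001-75152250 (plus strand).
Pdgfa: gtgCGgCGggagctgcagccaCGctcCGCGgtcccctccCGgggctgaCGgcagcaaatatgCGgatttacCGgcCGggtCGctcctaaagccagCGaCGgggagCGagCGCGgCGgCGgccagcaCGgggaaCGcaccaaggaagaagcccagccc
Pdgfra: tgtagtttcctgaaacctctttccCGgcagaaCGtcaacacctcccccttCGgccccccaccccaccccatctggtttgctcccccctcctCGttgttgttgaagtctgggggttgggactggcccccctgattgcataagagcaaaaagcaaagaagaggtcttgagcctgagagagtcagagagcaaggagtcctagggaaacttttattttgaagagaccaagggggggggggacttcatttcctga
The printed stretch of Pdgfa holds 20 CG dinucleotides in 157 bases and that of Pdgfra 4 in 250 bases. The windows are unlike in their place, one within and one before the annotated gene. A match describes letters and shows no binding.

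Pdgfb (ENSMUSG00000000489, chromosome 15, 79995874 to 80014977, minus strand), the ligand that endothelium uses to recruit pericytes, was at 44.1, 25.5, 17.4 and 33.1 CPM in Trp53ΔIEC tumours. It was at 46.5, 49.4, 23.9 and 30.3 CPM in Trp53ΔIECAktE17K tumours. The values of one group lay largely within those of the other, with a log2 fold change of 0.32 ± 0.33 (SE, edgeR adjusted p = 0.631). The 95% interval of the fold change ran from 0.737 to 2.12.

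Pdgfc (ENSMUSG00000028019, chromosome 3, 81036416 to 81214040, plus strand) and Pdgfd encode the 2 ligands that are secreted in latent form and need cleavage of a CUB domain. Pdgfc was at 24.0, 10.2, 17.8 and 20.8 CPM in Trp53ΔIEC tumours and at 46.9, 19.7, 8.23 and 19.9 CPM in Trp53ΔIECAktE17K tumours. Its highest and its lowest level both occurred in the Trp53ΔIECAktE17K group, in replicates 1 and 3. The log2 fold change was 0.38 ± 0.49 (SE, edgeR adjusted p = 0.707), and it was -0.21 without Trp53ΔIECAktE17K replicate 1, so that its direction rests on that tumour. Pdgfc shares 147 exon bases with the antisense gene Gm16000. Pdgfd (ENSMUSG00000032006, chromosome 9, 6168584 to 6378850, plus strand) was the least expressed member. It was at 10.1, 15.7, 4.97 and 12.9 CPM in Trp53ΔIEC and at 13.1, 4.24, 9.45 and 9.78 CPM in Trp53ΔIECAktE17K tumours, with both groups spread over the same range. Its log2 fold change was -0.26 ± 0.43 (SE, edgeR adjusted p = 0.778).

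Pdgfra (ENSMUSG00000029231, chromosome 5, 75152292 to 75198215, plus strand), the receptor of gut fibroblasts, was the most abundant member by counts and the member with the largest difference toward lower levels. It was at 193, 77.0, 155 and 167 CPM in Trp53ΔIEC replicates 1 to 4 and at 91.6, 71.1, 45.9 and 123 CPM in Trp53ΔIECAktE17K replicates 1 to 4. Every Trp53ΔIECAktE17K tumour lay below 3 of the 4 Trp53ΔIEC tumours, and the overlap came from Trp53ΔIEC replicate 2. Pdgfra shares 456 exon bases with Gm42802 and 166 with Gm42803, both on the other strand, and reads there cannot be told apart. The means were 148 ± 50.1 and 83.0 ± 32.8 CPM (SD, n = 4 each), with a log2 fold change of -0.84 ± 0.36 (SE, edgeR adjusted p = 0.225). The mean in Trp53ΔIECAktE17K tumours was below those of Pdgfa and Pdgfrb there, 112 and 92.8 CPM. In whole tumours, fewer PDGFRα-bearing cells and less Pdgfra RNA per cell cannot be told apart, and the same holds for every gene below.

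Pdgfrb (ENSMUSG00000024620, chromosome 18, 61045150 to 61085061, plus strand), the receptor of pericytes and smooth muscle, had a difference of the opposite sign. It was at 85.7, 50.3, 61.6 and 62.6 CPM in Trp53ΔIEC and at 110, 111, 59.1 and 91.3 CPM in Trp53ΔIECAktE17K tumours. In Pdgfrb 3 Trp53ΔIECAktE17K tumours lay above every Trp53ΔIEC tumour and replicate 3 lay within their range. The means were 65.0 ± 14.9 and 92.8 ± 24.3 CPM (SD, n = 4 each), with a log2 fold change of 0.51 ± 0.24 (SE, edgeR adjusted p = 0.261). The 95% interval of the fold change, 0.982 to 2.07, was the narrowest of the 7 on the log2 scale.

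Pdgfrl (ENSMUSG00000031595, chromosome 8, 40926212 to 40990785, plus strand) encodes a protein that resembles the ligand-binding part of the receptors and has no kinase domain. It was at 36.7, 19.7, 21.2 and 35.8 CPM in Trp53ΔIEC and at 50.8, 32.4, 60.0 and 19.0 CPM in Trp53ΔIECAktE17K tumours. Both the highest and the lowest tumour belonged to the Trp53ΔIECAktE17K group. The log2 fold change was 0.52 ± 0.38 (SE, edgeR adjusted p = 0.474).

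**Figure D2:**
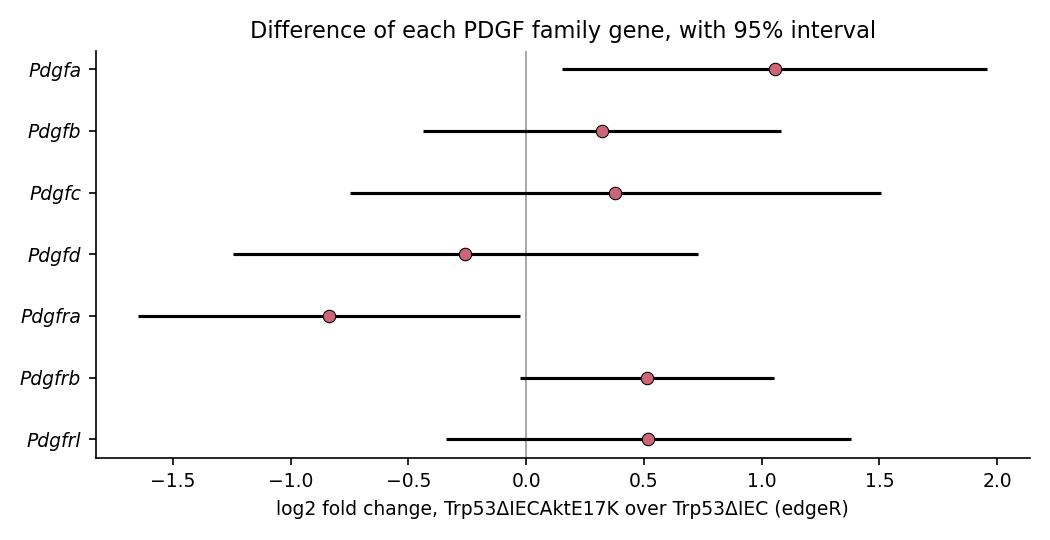
Log2 fold change of each PDGF family gene (horizontal axis, Trp53ΔIECAktE17K over Trp53ΔIEC, edgeR) as a point with its 95% interval, not adjusted for the number of genes tested. The intervals of Pdgfa (0.15 to 1.96) and Pdgfra (-1.65 to -0.02) lie on opposite sides of 0, and the other 5 cross it.

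The tumours did not rank alike for all members. Within Trp53ΔIEC, replicate 2 was the lowest of its group in 5 of the 7 genes and replicate 1 the highest in 6, while for Pdgfd replicate 2 was the highest. Among the Trp53ΔIECAktE17K tumours replicate 3 was the lowest in 4 genes, Pdgfb, Pdgfc, Pdgfra and Pdgfrb, and the highest in 2, Pdgfa and Pdgfrl.

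Levels of different genes were compared as RPKM, here CPM divided by the kilobases of annotated exon. On this scale Pdgfa was the main ligand gene in every tumour, with 17.3 ± 5.43 RPKM in Trp53ΔIEC and 36.0 ± 18.7 RPKM in Trp53ΔIECAktE17K tumours (SD, n = 4 each). Its share of the 4 ligand genes ranged from 41.7% to 66.5% in Trp53ΔIEC and from 52.2% to 85.6% in Trp53ΔIECAktE17K tumours, with the top value in replicate 3. Pdgfb followed with 15.1% to 27.2% and 7.99% to 33.2%. Pdgfc and Pdgfd made up the rest, with the largest share of Pdgfd, 22.2%, in Trp53ΔIEC replicate 2. The summed ligand level was 22.5 to 39.5 RPKM in Trp53ΔIEC and 35.8 to 71.7 RPKM in Trp53ΔIECAktE17K tumours, with overlap between the groups.

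**Figure D3:**
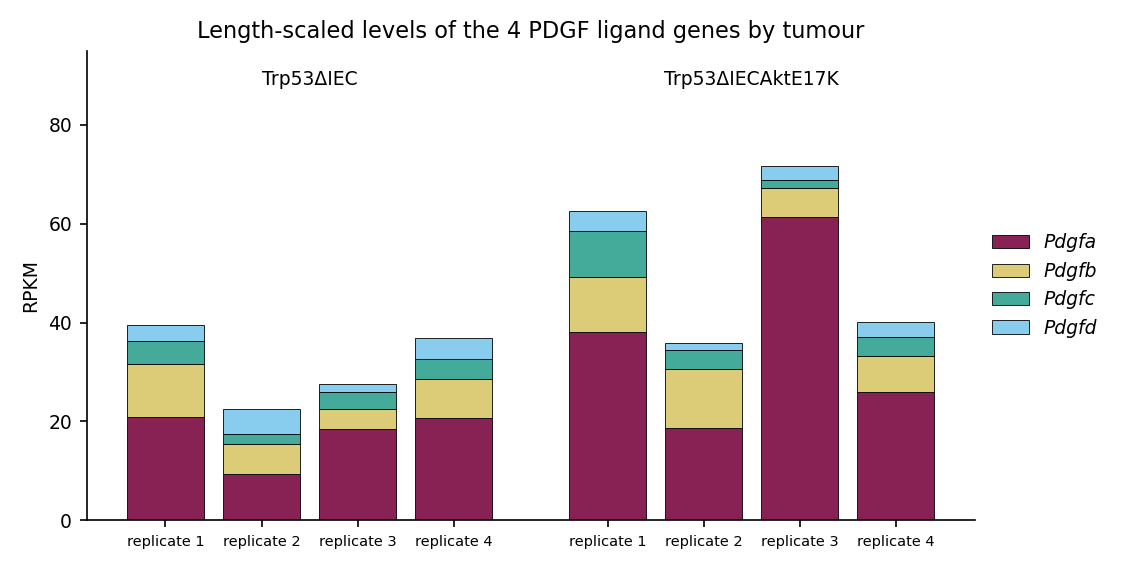
Length-scaled level in RPKM (vertical axis) of the 4 ligand genes, stacked, in each of the 8 tumours. Pdgfa is the largest segment in each bar, and the tallest bar, 71.7 RPKM, is Trp53ΔIECAktE17K replicate 3.

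The balance between the 2 receptor genes did not overlap between the genotypes, whereas each gene alone did. Pdgfra over Pdgfrb, as a ratio of RPKM within a tumour, was 1.23, 0.836, 1.38 and 1.46 in Trp53ΔIEC replicates 1 to 4. It was 0.455, 0.350, 0.425 and 0.739 in Trp53ΔIECAktE17K replicates 1 to 4. All 4 ratios of Trp53ΔIECAktE17K tumours lay below those of the other group, and Pdgfra made up 54.5% ± 6.22 of the summed level of both receptor genes in Trp53ΔIEC and 32.4% ± 7.12 in Trp53ΔIECAktE17K tumours (SD, n = 4 each). The mean difference of the log2 ratio was -1.34, and it ranged from -1.56 to -1.20 when 1 tumour was left out, a check added after the values had been seen. Such a ratio does not depend on how libraries are scaled. It is given as a description without a test, and 12.0% of the other tested genes also had a ratio to Pdgfrb without overlap.

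The ratio of Pdgfa to Pdgfra, a ligand and its receptor, was examined after the values had been seen. It was 1.09, 1.22, 1.18 and 1.24 in the Trp53ΔIEC tumours, nearly the same in each although Pdgfa itself ranged from 29.3 to 65.3 CPM there. In the Trp53ΔIECAktE17K tumours it was 4.17, 2.64, 13.4 and 2.10, higher in all 4 and spread widely. The mean difference of the log2 ratio was 1.83, and it was 1.27 without Trp53ΔIECAktE17K replicate 3. Of the other tested genes 11.9% had a ratio to Pdgfra without overlap between the groups. Pdgfb over Pdgfrb, the ligand and receptor of vessel and pericyte, was 0.603 ± 0.155 and 0.528 ± 0.0647 (SD, n = 4 each) and overlapped.

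**Figure D4:**
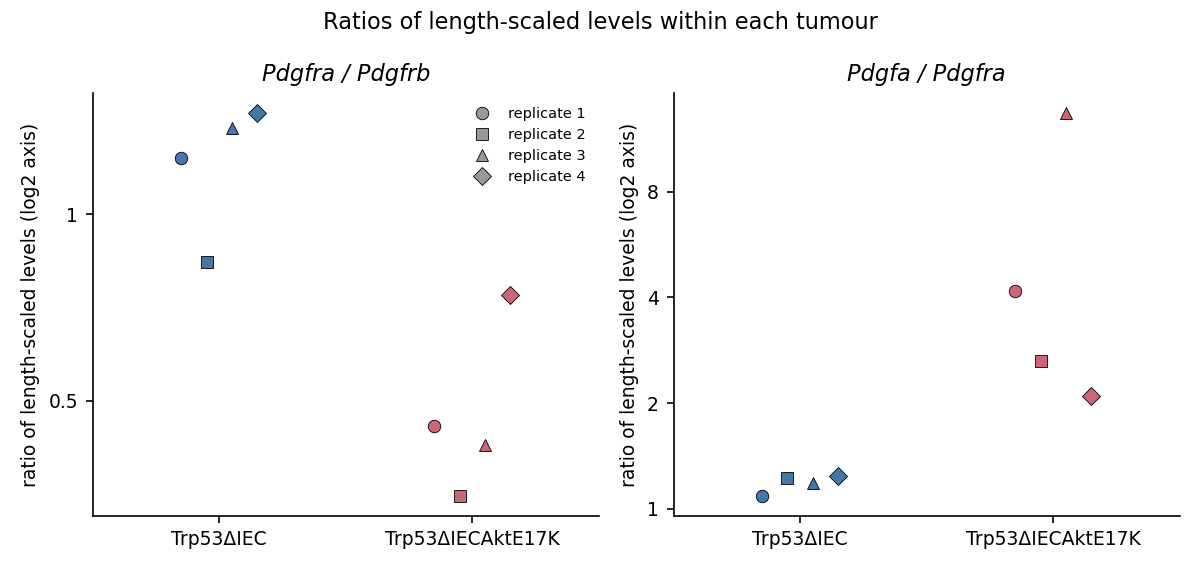
Ratio of length-scaled levels of Pdgfra to Pdgfrb (left) and of Pdgfa to Pdgfra (right) in each tumour, on log2 axes, by genotype. The groups do not overlap in either panel, and Trp53ΔIECAktE17K replicate 3 reaches 13.4 on the right.

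The proteins that process and hold PDGFs were examined as lists, described by counts without a test of the list. These and all other gene lists here were chosen with earlier results of these data known. Of 7 processing proteases 1 rose and 0 fell, with a median log2 fold change of -0.37 against 0.01 over all tested genes, of which 3.44% rose and 0.756% fell. DESeq2 called 1 higher and 2 lower, beside 1715 higher and 764 lower among 26114 genes with a p-value. The one that rose was Pcsk5, a proprotein convertase that can cut PDGF precursors, from 7.35 ± 2.69 to 29.2 ± 10.5 CPM in the Akt group (log2 fold change 1.99 ± 0.36, SE, edgeR adjusted p = 0.0267). Every Trp53ΔIECAktE17K tumour lay above every Trp53ΔIEC tumour in Pcsk5. Its call held in 2 of the 8 runs without 1 tumour. Plat, the tissue plasminogen activator that releases PDGF-C, ranged from 199 to 1844 CPM in Trp53ΔIEC and from 78.2 to 383 CPM in Trp53ΔIECAktE17K tumours (edgeR adjusted p = 0.263). Plau and St14, whose products cleave PDGF-D, had log2 fold changes of -0.20 and -0.59 (edgeR adjusted p = 0.872 and 0.129), and Furin, which cleaves PDGF-A and PDGF-B precursors, had -0.37 (edgeR adjusted p = 0.258). Pcsk6, like Pcsk5 a proprotein convertase gene, was lower without overlap between the groups and did not pass. It was at 78.9 ± 49.2 and 24.1 ± 13.9 CPM (log2 fold change -1.71, edgeR adjusted p = 0.119). Pcsk7 had a log2 fold change of -0.16 (edgeR adjusted p = 0.540). Plat, Plau, St14, Furin, Pcsk6 and Pcsk7 were named after their values had been seen.

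Of 7 binding proteins and co-receptors 2 rose and 1 fell, beside 3.44% and 0.756% of all tested genes, and the median log2 fold change was 1.09. DESeq2 called 4 higher and 1 lower, beside 9.49% of all genes with a p-value in either direction. Sparc, a matrix protein that binds PDGF-B, rose from 521 ± 145 to 1414 ± 406 CPM (log2 fold change 1.44 ± 0.27, SE, edgeR adjusted p = 0.0276). Lrp1, an endocytic receptor that forms a complex with PDGFRβ, rose from 113 ± 24.0 CPM to a mean of 239 ± 54.5 CPM (log2 fold change 1.09 ± 0.22, SE, edgeR adjusted p = 0.0356). In both genes the groups did not overlap. Pzp, a plasma protein of the alpha-2-macroglobulin family made in the liver, fell from 4.82 ± 0.478 to 0.391 ± 0.197 CPM (log2 fold change -3.60, edgeR adjusted p = 0.0064). Of the 9 hepatocyte markers Crp and Hpx also fell, with log2 fold changes of -8.31 and -2.91 (edgeR adjusted p = 0.00135 and 0.00942). Fgb, Ahsg and Cyp2e1 of that list had positive values, 2.29, 1.61 and 0.12 (edgeR adjusted p = 0.502, 0.219 and 0.970), and the part of liver RNA was not tested. A2m, of the same family and list as Pzp, went the other way without passing (log2 fold change 5.72, edgeR adjusted p = 0.0576). It was at 0.0465 to 0.497 CPM in Trp53ΔIEC tumours. In Trp53ΔIECAktE17K replicates 1 to 4 A2m was at 6.94, 4.69, 30.4 and 0.326 CPM. Without 1 tumour the calls of Sparc and Lrp1 held in 3 and 2 of 8 runs, and that of Pzp in 8.

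Of 32 genes of the first signalling steps after the receptors 1 rose and 2 fell, where 4.20% of all tested genes were called, and the median log2 fold change was -0.07. DESeq2 called 3 higher and 5 lower, beside 9.49% of the 26114 genes with a p-value before adjustment, a wider set than the 16539 of edgeR. The Src family kinase gene Fyn rose from 20.4 ± 1.86 to 38.9 ± 6.81 CPM (log2 fold change 0.93 ± 0.16, SE, edgeR adjusted p = 0.0251). Its relative Yes1 fell from 85.5 ± 6.32 to 57.7 ± 4.11 CPM (log2 fold change -0.57, edgeR adjusted p = 0.0282). Pik3ca, the catalytic subunit of phosphoinositide 3-kinase, fell from 94.2 ± 6.31 to 69.4 ± 3.20 CPM (log2 fold change -0.44, edgeR adjusted p = 0.0480). The groups did not overlap in these 3 genes. Fyn and Yes1 each kept their call in 2 of the 8 runs without 1 tumour, and Pik3ca in 0.

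Of 18 growth factor response genes 1 rose and 0 fell, a share near the 3.44% of all tested genes that rose, with a median log2 fold change of 0.01. DESeq2 called 3 higher and 1 lower, beside 9.49% of all genes with a p-value, and limma-voom, RLE scaling and both other filters called 0. The gene that rose was Has2, a hyaluronan synthase gene that PDGF can induce in fibroblasts, from 2.87 ± 1.06 to 12.5 ± 7.18 CPM (log2 fold change 2.12 ± 0.48, SE, edgeR adjusted p = 0.0486, call kept in 1 of 8 runs). The immediate early genes Fos and Egr1, named after their values had been seen, had log2 fold changes of -0.20 and -0.01 (edgeR adjusted p = 0.868 and 0.992).

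The nearest relatives of the family are the VEGF ligands and receptors and the other class III receptor kinases. In edgeR 0 of 8 VEGF family genes passed, and 2, Flt4 and Kdr, were under 0.05 before adjustment. DESeq2 called 1 of them, beside 9.49% of all genes with a p-value, and limma-voom 0. All 8 had a positive log2 fold change, with a median of 0.70, and the lymphatic receptor gene Flt4 had the lowest p (5.62 ± 1.35 against 12.5 ± 4.86 CPM, edgeR adjusted p = 0.0948). Kdr, the main endothelial receptor gene, had a log2 fold change of 0.84 (edgeR adjusted p = 0.157). Of 6 other class III receptor and ligand genes 0 passed in edgeR, and 1 was under 0.05 before adjustment. DESeq2 called 1 and limma-voom 0. The gene with the lowest p in edgeR was Kit, the receptor of mast cells and interstitial cells of Cajal, at 41.3, 14.3, 15.3 and 7.03 CPM in Trp53ΔIEC and 41.1, 57.4, 292 and 25.3 CPM in Trp53ΔIECAktE17K tumours. Kit was highest in the tumour in which Pdgfra was lowest, Trp53ΔIECAktE17K replicate 3. Flt3, a receptor gene of blood progenitors and dendritic cells, had a log2 fold change of -1.04 (edgeR adjusted p = 0.457).

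Markers of cells known to carry PDGFRβ rose in part. Pericyte markers, a list without Pdgfrb, rose in 5 of 8 tested members, beside 3.44% of all tested genes, with a median log2 fold change of 1.99. Their summed level was 129 to 215 CPM in Trp53ΔIEC and 246 to 550 CPM in Trp53ΔIECAktE17K tumours. The potassium channel genes Kcnj8 and Abcc9 rose by log2 fold changes of 2.53 and 2.03 (edgeR adjusted p = 0.0157 and 0.0211), against 0.51 for Pdgfrb. Rgs5, Mcam and Cspg4 of that list did not pass, with log2 fold changes of 0.73, 0.98 and 1.96 (edgeR adjusted p = 0.152, 0.115 and 0.0891). Smooth muscle markers rose in 7 of 9, with sums of 352 to 615 and 1151 to 1903 CPM, among them Des, the muscle intermediate filament gene, by a log2 fold change of 3.81 (edgeR adjusted p = 0.00196). Mylk and Lmod1 of that list did not pass, with log2 fold changes of -0.28 and 1.46 (edgeR adjusted p = 0.601 and 0.0622). No marker of either list was at 0 in a whole group. The part of these cells in the level of Pdgfrb was not tested.

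Fibroblasts, the cells known to carry PDGFRα, were read from 3 lists, beside 3.44% of all tested genes that rose and 0.756% that fell. General fibroblast markers rose in 4 of 10 with a median log2 fold change of 1.34, with sums of 2547 to 4191 CPM in Trp53ΔIEC and 5652 to 8465 CPM in Trp53ΔIECAktE17K tumours. Among them Col1a2 rose by 1.21 and Dcn by 0.90 on the log2 scale (edgeR adjusted p = 0.0296 and 0.0364). Markers of fibroblasts at the crypt base rose in 3 of 6, among them Grem1, a BMP antagonist gene, from 16.4 ± 5.17 to 257 ± 95.7 CPM (edgeR adjusted p = 0.00273), and Rspo3, a Wnt agonist gene (log2 fold change 4.56, edgeR adjusted p = 0.0169). Cd81, Ackr4 and Cd34 of that list did not pass, with log2 fold changes of -0.03, 0.18 and 1.21 (edgeR adjusted p = 0.938, 0.906 and 0.0916).

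Markers of telocytes and crypt-top fibroblasts, the gut cells known for the highest PDGFRα, did not pass in edgeR in any of 8 members, with 1 under 0.05 before adjustment, and DESeq2 and limma-voom called 0. Without Trp53ΔIECAktE17K replicate 4 the count called lower was 1, and without replicates 1 and 4, the tumours with the highest squamous sums, it was 3. Lower calls over all tested genes also increased in these runs, to 247 and 223, against 125 with all 8 tumours. With all tumours the median log2 fold change of the 8 markers was -0.05. Their sums were 284 to 512 CPM in Trp53ΔIEC and 198 to 630 CPM in Trp53ΔIECAktE17K tumours, and no member was at 0 in a whole group. The telocyte transcription factor gene Foxl1 was at 15.3, 16.4, 6.93 and 17.9 CPM in Trp53ΔIEC and at 5.21, 0.823, 0.462 and 8.71 CPM in Trp53ΔIECAktE17K tumours (a log2 fold change of -1.89, edgeR adjusted p = 0.251). Bmp5 and Sox6 had log2 fold changes of -1.81 and -1.44 (edgeR adjusted p = 0.259 and 0.176). The other 5 members, Bmp4, Bmp7, Nrg1, Wnt5a and F3, had log2 fold changes from -0.06 to 0.29. Pdgfra had its lowest 2 values in Trp53ΔIECAktE17K replicates 2 and 3. So did Foxl1, Bmp5, Sox6, Bmp4, Bmp7 and Nrg1 of this list, but not Wnt5a and F3. That order was noticed after the values had been seen, and its share over all tested genes was not counted. The part of these cells in the level of Pdgfra was not tested.

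**Figure D5:**
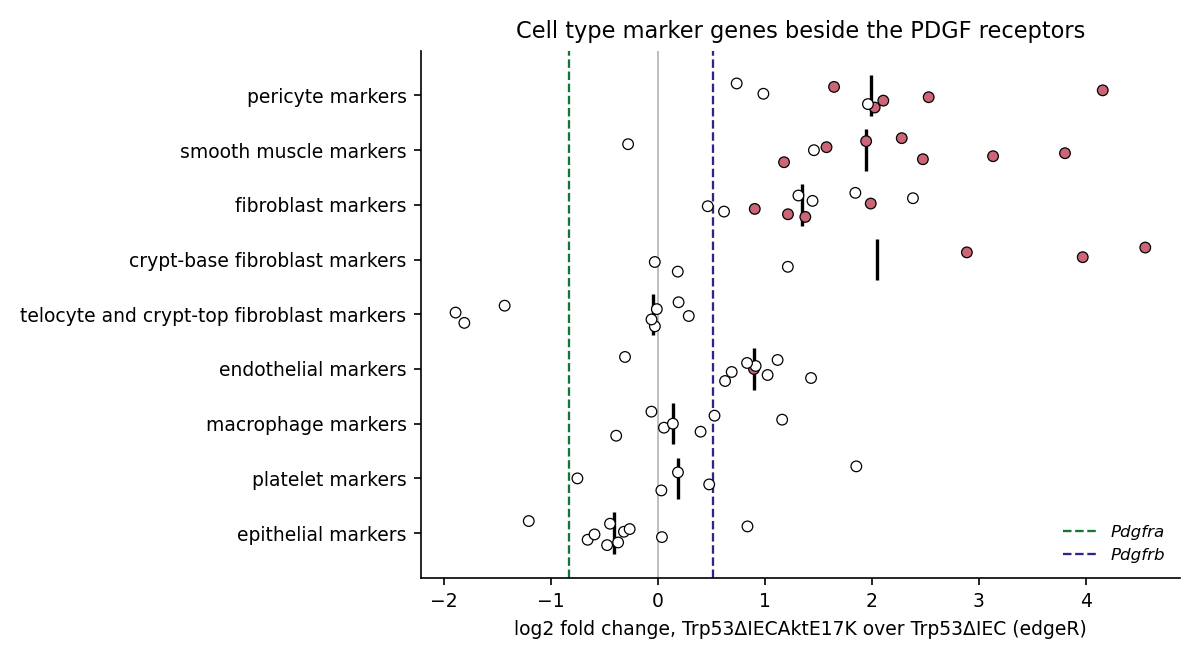
Log2 fold change (horizontal axis, Trp53ΔIECAktE17K over Trp53ΔIEC, edgeR) of each tested marker gene by cell type list, filled red at an adjusted p under 0.05, with a black bar at the list's median and dashed lines at Pdgfra (-0.84) and Pdgfrb (0.51). Medians of pericyte (1.99) and fibroblast (1.34) markers lie to the right of both receptors, and 3 telocyte markers lie to the left of Pdgfra.

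Cells known as sources of ligands were read in the same way, beside 3.44% of all tested genes that rose and 0.756% that fell. Endothelial markers rose in 1 of 9, Plvap (60.4 ± 12.6 against 112 ± 20.2 CPM, edgeR adjusted p = 0.0434), with a median log2 fold change of 0.90 and sums of 180 to 332 and 267 to 485 CPM. Vwf of that list had a negative log2 fold change, -0.31 (edgeR adjusted p = 0.736), and the other members had positive ones. Of 10 epithelial markers 0 passed in edgeR, with 4 under 0.05 before adjustment and 1 called lower by DESeq2. The epithelial adhesion gene Epcam had 2294 ± 236 and 1518 ± 388 CPM (without overlap, log2 fold change -0.60, edgeR adjusted p = 0.140). The median log2 fold change of the epithelial markers was -0.41. In 2 of them, Krt20 and Elf3, it was positive, at 0.84 and 0.04 (edgeR adjusted p = 0.434 and 0.941). Of 5 platelet and 7 macrophage markers none passed in edgeR, limma-voom or DESeq2, and 0 and 1 were under 0.05 before adjustment. Platelet markers summed to 23.3 to 30.4 and 15.0 to 56.5 CPM and macrophage markers to 282 to 551 and 237 to 685 CPM. Enteric glia markers rose in 1 of 4, Sox10, without a read in any Trp53ΔIEC tumour and at 1.61 ± 0.786 CPM in the second group (edgeR adjusted p = 0.0228). Mesothelial markers rose in 1 of 2, the transcription factor gene Wt1 (0.0210 ± 0.0246 against 4.68 ± 2.87 CPM, edgeR adjusted p = 0.0107).

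These list counts depend on single tumours, as do the calls over all tested genes. Without Trp53ΔIEC replicate 2, 3 or 4 the counts were 0 for pericyte and 0 for fibroblast markers. All tested genes called higher were then 64, 72 and 67, against 569 with all 8 tumours. Without Trp53ΔIECAktE17K replicate 1 or 2 the count of fibroblast markers was also 0, with 155 and 252 of all tested genes called higher. Over all 8 removals the pericyte and fibroblast counts ranged from 0 to 6 and from 0 to 5. DESeq2, which called 9.49% of all genes with a p-value, called 7 and 8. With the title letter as a term both counts were 0, and with the replicate block they were 1 and 0. All tested genes called higher were 90 and 48 in these fits. Smooth muscle markers kept 4 to 6 calls in each removal and crypt-base markers 1 to 3. The endothelial count, 1, was 5 with DESeq2 and 0 in every removal except that of Trp53ΔIECAktE17K replicate 3.

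For each member the genes with the most similar pattern over the 8 tumours were taken by Pearson's r of log2 CPM, as a description without a test, since tumours of 2 genotypes make up the points. They are the highest of 13171 candidate genes over only 8 points, so that a high r comes in part from the picking. Pdgfrb was closest to Zeb1, a transcription factor gene of mesenchymal cells (r = 0.99), followed by Csrp2 and Dlc1 (both 0.97). Zeb1 was at 13.5, 8.65, 9.44 and 9.31 CPM in Trp53ΔIEC and at 19.2, 18.9, 9.07 and 14.3 CPM in Trp53ΔIECAktE17K tumours, with the same pair of high tumours as Pdgfrb. Pdgfra was closest to Itprid2, Abhd10 and Smpd3 (r = 0.97 each). Pdgfa was closest to Hey2, a Notch target gene (r = 0.97), with Sesn3 and Snx6 next (both 0.96). Hey2 was at 3.81, 1.23, 11.2 and 1.30 CPM in Trp53ΔIECAktE17K tumours, highest in replicate 3 as Pdgfa was. Pdgfb was closest to Cd99l2, Mtch1 and Fcrls (r = 0.94 to 0.95), and Pdgfc to Ptgs1, Ece1 and Ppp3ca (r = 0.95 to 0.97). For Pdgfd the genes were Cavin4, Tcf12 and Msrb2 (r = 0.92 to 0.96), and for Pdgfrl they included Chst14 and Dmrta2 (r = 0.94 and 0.93). None of the genes named here passed the edgeR test between the groups.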

How the data were processed

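The authors deposited, for each of 8 tumours, unnormalised counts of reads per Ensembl gene. HTSeq 0.6, STAR 2.3.0, DESeq2 1.8.1, CASAVA 1.8.2, SAMtools 1.2 and the build mm10 are named in the submitters' processing notes, with no role for any. Annotation release and strand setting were not given in the sources used here. Per the labels' protocols, libraries were made with TruSeq mRNA v2. The 5 closing lines of each table were set aside: reads in no feature were 9.74% to 11.7% and ambiguous reads 1.93% to 2.32% of assigned, ambiguous and no-feature reads together. Symbols, positions and exon lengths came from GENCODE M21 (36602 of 38355 identifiers, 95.4%).

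All genes were fitted in edgeR 4.0.16 (R 4.3.3) with filterByExpr, TMM and the robust quasi-likelihood test, fitting the genotype alone. Benjamini-Hochberg adjustment ran over 16539 genes, with calls at an adjusted p under 0.05. SE and 95% intervals were derived from the F statistic. The log2 CPM for gene likeness used a prior count of 2. Each tumour is 1 mouse, so p-values apply to variation between mice.

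The members, lists and rule for named genes were chosen with earlier results of these data known. The rule takes the 7 members, called genes of each pathway list (or the 2 with the lowest p), up to 3 with the lowest adjusted p per marker list and the 3 most similar genes per member with an average log2 CPM of at least 1. Plat, Plau, St14, Furin, Pcsk6, Pcsk7, A2m, Fos, Egr1, Trp53, Akt1 and Cdx2 were named outside it, as were further members of marker lists given beside those it names. A gene that the rule names is not reported here. Alternatives were DESeq2 1.42.0, limma-voom 3.58.1, other scalings and filters, a replicate block, the title letter as a term, and tumours left out.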

Additional observations from a re-analysis of the deposited data

Results flagged for a closer look

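In 81 genes and 162 groups of 4 tumours, 16 groups had 1 tumour far from the other 3 by Dixon's ratio, which chance gives in about 1 of 20 groups. None of the 7 PDGF genes was among them. In Trp53ΔIECAktE17K tumours, Kit was at 292 CPM in replicate 3 (25.3 to 57.4 CPM in the others), Cd68 at 147 CPM in replicate 2 (41.3 to 45.4 CPM), Sesn3 at 39.3 CPM in replicate 3 (11.3 to 15.9 CPM) and Dcn at 355 CPM in replicate 3 (573 to 599 CPM). The squamous keratin genes Krt5 and Krt13 were at 4606 and 1841 CPM in replicate 1 (up to 630 and 327 CPM in the others). The hepatocyte genes Crp and Hpx were at 0.0423 CPM in replicate 1 (0 in the others) and 2.84 CPM in replicate 2 (1.12 to 1.30 CPM).

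In Trp53ΔIEC tumours, replicate 1 was high in 5 stromal genes. Kcnj8 was at 12.3 CPM (4.80 to 5.49 CPM in the others), Abcc9 at 16.6 CPM (8.01 to 9.17 CPM), Cnn1 at 16.8 CPM (10.3 to 11.3 CPM), Des at 22.6 CPM (13.0 to 14.6 CPM) and Zeb1 at 13.5 CPM (8.65 to 9.44 CPM). The same tumour was the highest of its group in 6 of the 7 PDGF genes. Dcn was at 314 CPM in replicate 4 (270.1 to 277 CPM), Itprid2 at 86.8 CPM in replicate 2 (119 to 122 CPM) and Krt5 at 0.714 CPM in replicate 2 (0.0465 to 0.115 CPM).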

How the results depend on the processing

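In each of 17 other settings 0 PDGF genes were called, with DESeq2 included, and the lowest adjusted p was 0.0949 (Pdgfa, DESeq2). Pdgfa, Pdgfd, Pdgfra, Pdgfrb and Pdgfrl kept their sign in all 17. The title letter, added as a term, gave -0.15 for Pdgfb and -0.37 for Pdgfc (log2 fold change). Pdgfc was also at -0.21 without Trp53ΔIECAktE17K replicate 1 and at -0.40 without replicates 1 and 4. With 1 tumour left out the log2 fold changes ranged from 0.68 to 1.25 (Pdgfa), 0.11 to 0.56 (Pdgfb), -0.21 to 0.67 (Pdgfc), -0.52 to -0.04 (Pdgfd), -1.10 to -0.63 (Pdgfra), 0.40 to 0.68 (Pdgfrb) and 0.27 to 0.74 (Pdgfrl). The cause of these shifts was not tested.

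Over all tested genes the higher and lower calls were 569 and 125. They were 1715 and 764 with DESeq2, 90 and 6 with the title letter as a term, and 48 and 2 with the replicate block. Left-out tumours gave 64 to 702 higher and 10 to 247 lower calls, and leaving out Trp53ΔIECAktE17K replicates 1 and 4 gave 460 and 223. Fewer tumours or more terms also leave fewer residual degrees of freedom. Same-numbered tumours did not deviate together from their group means (r from -0.24 to 0.01), and tumours of different number had r from -0.24 to 0.25. These values cannot decide whether the numbers pair tumours, and the labels name no pairing. The block changed no call of a PDGF gene. Titles give Trp53ΔIECAktE17K replicates 1 and 2 the letter A and the other tumours B. The names of the deposited tables give all 4 Trp53ΔIECAktE17K tumours the letter A, and what it marks was not stated, so it may not be a batch. If titles are taken as given, the fit with the letter compares replicates 3 and 4 with the Trp53ΔIEC tumours.

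For 74 other named genes, 1037 of 1255 values kept direction and call, 179 lost and 18 gained a call, and 21 changed sign. The sign changes were in genes that did not pass. With the title letter they were Msln -0.49, Cd99l2 -0.14, Mtch1 -0.14, Fcrls -0.25, Ptgs1 -0.30, Ece1 -0.28 and Ppp3ca -0.16. Without Trp53ΔIECAktE17K replicates 1 and 4 they were Mtch1 -0.0061, Ptgs1 -0.41, Ece1 -0.30 and Ppp3ca -0.24. With 1 tumour left out the values ranged from -0.34 to 1.18 for Msln, -0.051 to 0.13 for Mtch1, -0.24 to 0.37 for Ptgs1, -0.21 to 0.23 for Ece1 and -0.085 to 0.29 for Ppp3ca. The 2 log2 ratios kept their sign in all removals, and without replicates 1 and 4 they were -1.64 (Pdgfra over Pdgfrb) and 2.33 (Pdgfa over Pdgfra).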
